A study of Mus musculus with 6 samples.

Results

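The genes described here are the mouse receptors for the constant (Fc) part of IgG antibodies, Fcgr1, Fcgr2b, Fcgr3 and Fcgr4, together with Fcer1g, the signalling chain that the activating receptors share. They were taken by gene symbol from the annotation of the array's probe sets, and all 5 of the 5 listed genes were measured among 18193 genes in all. Expression was read on 6 Affymetrix whole-genome mouse arrays of bone marrow cells. The group MN1 (n = 2 arrays) held sorted GFP+ cells carrying pSF91-MN1-IRES-GFP, a retroviral vector for the leukaemogenic transcriptional cofactor MN1. The group MN1VP16 (n = 2) held GFP+ cells carrying pSF91-MN1VP16-IRES-GFP, VP16 being a transcriptional activator known from herpes simplex virus. Gr1Mac (n = 2) held Gr1+/CD11b+ marrow cells, sorted on surface markers of granulocytes and monocytes.

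The transduced cells were marrow of C57BL/6J mice under treatment with 5-fluorouracil (150 mg/kg, 4 days). They were stimulated for 48 hours with 10 ng/mL hIL6, 6 ng/mL mIL3 and 20 ng/mL mSCF, transduced, and transplanted into lethally irradiated syngeneic mice, from which they were sorted 4 weeks later. The labels give every array the strain C57BL6 and the same protocols, and do not say separately from which mice the Gr1Mac cells came. Age, number of mice and whether the arrays of a group stand for different animals are not stated. The p-values reflect variation among arrays. Within MN1 and within MN1VP16 it is not known whether this includes variation between animals. The Gr1Mac arrays differed from each other in sex pattern, as given below, so they were not repeats of one sample. The values are the authors' log2 expression values per probe set, written below as log2 units. Each probe set has its own brightness, so levels of different genes do not give their relative amounts.

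IgG Fc receptors let myeloid cells bind antibody-coated particles, engulf them and release mediators. Fcgr1 is the high-affinity receptor, while Fcgr3 and Fcgr4 bind immune complexes with lower affinity. All of these need Fcer1g, whose cytoplasmic tail carries an immunoreceptor tyrosine-based activation motif (ITAM) that Src family kinases phosphorylate and the kinase Syk then binds. Fcgr2b is the inhibitory member: it carries an inhibitory motif of its own, recruits the lipid phosphatase encoded by Inpp5d and dampens activation. Neutrophils, monocytes and macrophages, mast cells and NK cells carry different sets of these receptors, and on B cells Fcgr2b is the main one. The transcription factor PU.1, encoded by Spi1, is known to act on several of these genes through sites with the core GAGGAA, and Fcgr1 is known to respond to interferon gamma through a site of the form TTCNNNGAA.

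The stretches before the annotated starts are shown because the activating members fell together in MN1 against Gr1Mac, as did the gene of PU.1. Whether PU.1 had a part in these differences was not tested. RefSeq's promoter table (GRCm38.p6) held all 5 genes, with 2 overlapping starts for Fcgr3, of which the first is printed. Each sequence is the 150 bases before the start, 5′ to 3′ on the gene's strand. Capitals mark GAGGAA, searched on both strands and here seen as TTCCTC, and in Fcgr1 also TTCNNNGAA, which reads the same on both strands. No capitals overlap.
Fcgr1 (chr3:96293970-96294119, minus strand): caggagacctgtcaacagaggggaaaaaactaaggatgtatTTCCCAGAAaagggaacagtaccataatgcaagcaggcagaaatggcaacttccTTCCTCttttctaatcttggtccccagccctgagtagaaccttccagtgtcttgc
Fcgr3 (chr1:171059404-171059553, minus strand): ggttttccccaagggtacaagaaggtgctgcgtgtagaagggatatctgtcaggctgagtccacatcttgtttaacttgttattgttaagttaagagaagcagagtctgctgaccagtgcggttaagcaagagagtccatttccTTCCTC
Fcgr4 (chr1:171018776-171018925, plus strand): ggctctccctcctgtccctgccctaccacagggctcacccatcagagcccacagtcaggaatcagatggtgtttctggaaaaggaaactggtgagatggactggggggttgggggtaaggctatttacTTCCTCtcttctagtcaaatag
Fcgr2b (chr1:170976072-170976221, minus strand): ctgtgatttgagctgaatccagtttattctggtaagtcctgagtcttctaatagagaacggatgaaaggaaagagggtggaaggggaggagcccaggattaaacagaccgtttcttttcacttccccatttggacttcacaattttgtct
Fcer1g (chr1:171234350-171234499, minus strand): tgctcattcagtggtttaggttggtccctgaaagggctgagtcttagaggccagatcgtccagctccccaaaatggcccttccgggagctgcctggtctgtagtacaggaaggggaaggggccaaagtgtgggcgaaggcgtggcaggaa

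GAGGAA was found in the windows of 3 of the 5 genes, Fcgr1, Fcgr3 and Fcgr4, which are the activating receptors. It lay 55 to 50 bases before the start of Fcgr1, 22 to 17 before that of Fcgr4 and 6 to 1 before the first start of Fcgr3 (15 to 10 before the second). Of all 32851 windows of this length in the table, 14.5% held it. TTCNNNGAA, found only in the window of Fcgr1 among the 5 genes, lay 109 to 101 bases before its start and occurred in 4.09% of all windows. A match is a run of letters, not a shown binding site, and the windows of Fcgr2b and Fcer1g lack only these letters.

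Several features of the whole series bear on the values below. The arrays' medians lay between 5.36 and 5.43 log2 units. Xist, the RNA of the inactive X chromosome, was high on both MN1 arrays and on Gr1Mac array 1, and the Y-linked gene Kdm5d was high on both MN1VP16 arrays and on Gr1Mac array 2, so the sex pattern and the construct cannot be told apart between MN1 and MN1VP16. Readings of these absent transcripts reached 5.84 log2 units, which serves as a guide to the background, chosen after the values were seen. That highest reading was Xist on MN1VP16 array 2, while Kdm5d read 3.01 to 3.20 on the arrays with high Xist. The guide also lies above every array's median, so a reading under it does not show that a transcript was absent. The brightest control features on the chips also split the arrays, with MN1 and MN1VP16 array 1 on one side, and Gr1Mac and MN1VP16 array 2 on the other. The single probe set of Mn1 read between 3.63 and 4.92 on every array, near the bottom of the scale, and does not check the construct. Itgam, which encodes CD11b, was at 10.95 and 10.92 in Gr1Mac, 9.44 and 8.88 in MN1VP16 and 7.67 and 6.95 in MN1, and Ly6g, which encodes the neutrophil form of Gr1, had no single-gene probe set.

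The activating Fc receptors and their shared chain were lower in MN1 cells than in Gr1+/CD11b+ marrow cells. The inhibitory receptor Fcgr2b differed in the same direction, by -0.88 log2 units, but was not called. A call for some genes and none for another does not show that they differ. Fcer1g, Fcgr4 and Fcgr3 fell by 2.09 to 2.64 log2 units, and Fcgr1 fell to readings under the background guide. MN1VP16 cells lay between the other groups for Fcer1g, Fcgr4 and Fcgr3, and overlapped Gr1Mac for Fcgr1 and Fcgr2b. In bulk RNA, fewer cells of a type and less RNA per cell cannot be told apart.

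**Figure D1:**
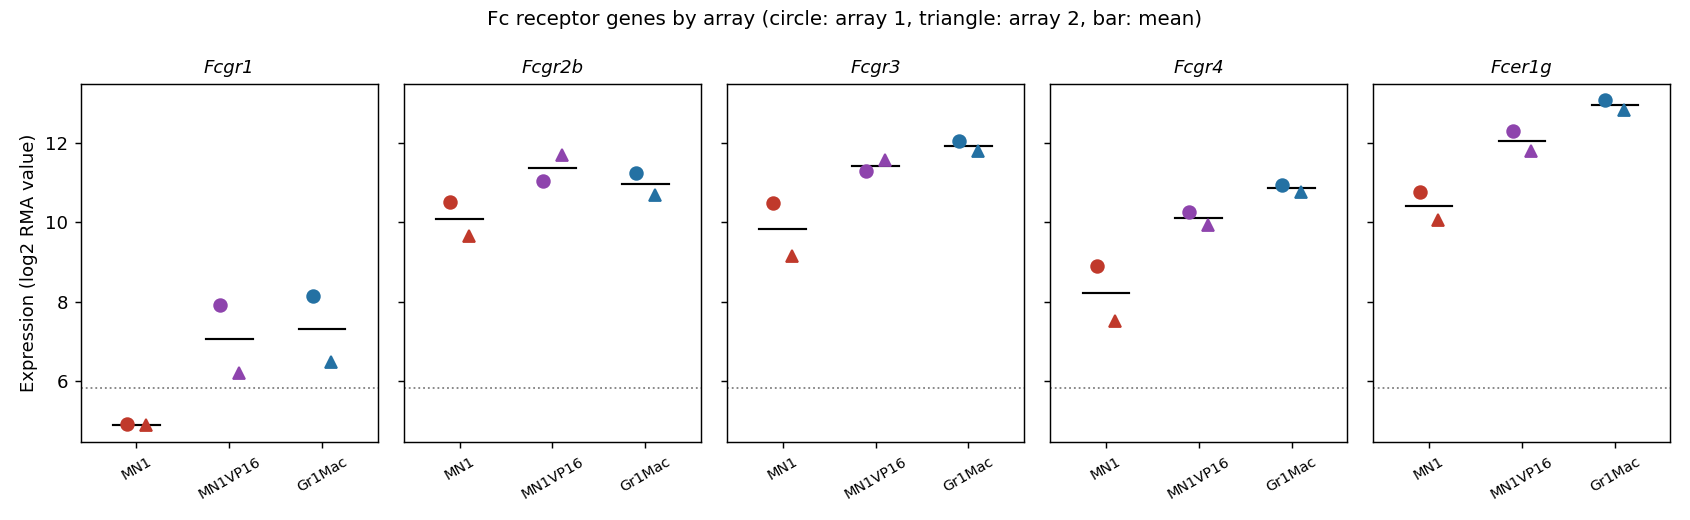
Log2 expression value (vertical axis) of the 5 genes on each array of MN1, MN1VP16 and Gr1Mac; circles are array 1, triangles array 2, bars the group means, and the dotted line the background guide at 5.84. Both MN1 arrays lie under both Gr1Mac arrays for every gene, and Fcgr1 in MN1 lies under the guide.

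Fcer1g, the ITAM-bearing chain without which Fcgr1, Fcgr3 and Fcgr4 do not signal, read 10.76 and 10.07 log2 units in MN1, 12.31 and 11.80 in MN1VP16, against 13.09 and 12.82 in Gr1Mac. The 3 groups did not overlap, with MN1 lowest and Gr1Mac highest. Between MN1 and Gr1Mac it was 5.81-fold lower in MN1 (95% interval 3.52 to 9.61; limma adjusted p = 0.00280). It was 3.12-fold higher in MN1VP16 than in MN1 (95% interval 1.89 to 5.16; limma adjusted p = 0.0457). Its difference between MN1VP16 and Gr1Mac, -0.90 ± 0.30 log2 units (SE), did not pass the threshold (limma adjusted p = 0.138).

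Fcgr4, the mouse receptor for IgG2a and IgG2b complexes, read 8.91 and 7.52 in MN1, 10.26 and 9.94 in MN1VP16, against 10.95 and 10.77 in Gr1Mac. Again no 2 groups overlapped, and the MN1 arrays were the farthest apart. It was 6.25-fold lower in MN1 than in Gr1Mac (95% interval 2.98 to 13.1; limma adjusted p = 0.00727). Against MN1 it was 1.88 ± 0.44 log2 units higher in MN1VP16, which did not pass (limma adjusted p = 0.0737).

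Fcgr3, the low-affinity receptor for immune complexes, read 10.49 and 9.16 in MN1, 11.28 and 11.56 in MN1VP16, against 12.04 and 11.81 in Gr1Mac. The groups kept the same order without overlap, MN1VP16 lying close under Gr1Mac. It was 4.27-fold lower in MN1 than in Gr1Mac (95% interval 2.09 to 8.74; limma adjusted p = 0.0141). The difference between MN1VP16 and MN1, 1.59 ± 0.42 log2 units, did not pass (limma adjusted p = 0.0980), nor did that between MN1VP16 and Gr1Mac, -0.50 ± 0.42 (limma adjusted p = 0.563; 95% interval -1.53 to 0.53).

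Fcgr1, the high-affinity receptor, read 4.93 and 4.88 in MN1, 7.91 and 6.20 in MN1VP16, against 8.13 and 6.47 in Gr1Mac. Both MN1 arrays lay under the background guide, while MN1VP16 and Gr1Mac overlapped, each with array 1 far above array 2. The fitted difference between MN1 and Gr1Mac was -2.40 ± 0.70 log2 units (limma adjusted p = 0.0484), and set against the guide Fcgr1 was at least 2.76-fold lower in MN1. This bound rests on Gr1Mac array 1: from Gr1Mac array 2 alone it was 1.55-fold. The call was narrow: without Gr1Mac array 1 the difference was -1.57 (adjusted p = 0.189), without MN1 array 1 the adjusted p was 0.155 and without MN1 array 2 it was 0.180. The other probe set of Fcgr1 gave a smaller difference, -0.91 ± 0.31 (limma adjusted p = 0.0816). Between MN1VP16 and MN1 the difference of 2.15 ± 0.70 did not pass (limma adjusted p = 0.144).

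Fcgr2b, the inhibitory receptor, read 10.52 and 9.66 in MN1, 11.04 and 11.70 in MN1VP16, against 11.24 and 10.70 in Gr1Mac. MN1 lay lowest without overlap, and MN1VP16 overlapped Gr1Mac and held the highest single reading, on its array 2. The difference of -0.88 ± 0.38 log2 units between MN1 and Gr1Mac did not pass (limma adjusted p = 0.139; 95% interval -1.80 to 0.04). Between MN1VP16 and Gr1Mac the difference was 0.40 ± 0.38 (limma adjusted p = 0.617), and between MN1VP16 and MN1 it was 1.28 ± 0.38 (limma adjusted p = 0.118).

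Counted over the 5 genes, 4 were called lower in MN1 than in Gr1Mac, where 12.0% of all genes were called lower. All 5 read lower on both MN1 arrays than on both Gr1Mac arrays, as did 35.8% of all genes, and 0 read higher on both, as did 30.9%. The median difference was -2.09 log2 units over the 5 genes with Fcgr1 at its bound (-2.40 as fitted), and -0.06 over all genes. Between MN1VP16 and Gr1Mac limma called 0 of 5 (1 at an unadjusted p under 0.05, Fcer1g), against 5.77% of all genes called in either direction, 2.11% lower and 3.66% higher. In that comparison 3 of 5 lay lower without overlap and 0 higher, against 25.2% and 24.8% of all genes. Between MN1VP16 and MN1 limma called 1 of 5 higher, against 1.15% of all genes (2.70% were called lower and 3.85% in either direction). All 5 were higher at an unadjusted p under 0.05, as were 9.15% of all genes. All 5 lay higher in MN1VP16 without overlap, as did 30.5% of all genes. The comparisons share arrays, so they are not separate evidence for an order of the groups.

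**Figure D2:**
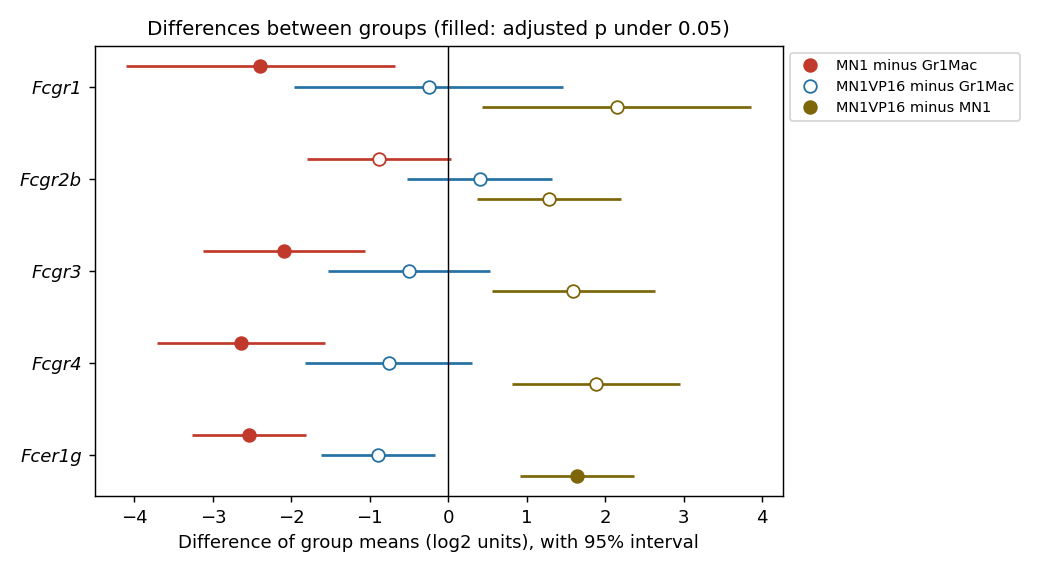
Difference of group means in log2 units (horizontal axis) with its 95% interval from limma for each gene and comparison; filled points passed an adjusted p under 0.05. The 4 filled points of MN1 minus Gr1Mac lie between -2.64 and -2.09 (Fcgr1 as fitted, with MN1 under the background guide), and the interval of Fcgr2b reaches 0.04.

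Within the arrays of one sex pattern or one side of the control feature split, the differences were as follows. On the Xist-high arrays, the MN1 mean differed from Gr1Mac array 1 by -2.67 log2 units for Fcer1g, -2.73 for Fcgr4, -2.21 for Fcgr3, -3.23 for Fcgr1 and -1.16 for Fcgr2b. On the Y-high arrays, MN1VP16 differed from Gr1Mac array 2 by -0.76 for Fcer1g, -0.67 for Fcgr4 and -0.38 for Fcgr3, and by 0.58 for Fcgr1 and 0.67 for Fcgr2b. On the side of the split with both MN1 arrays, MN1VP16 array 1 lay above their mean for all 5 genes, by 0.96 (Fcgr2b) to 3.0 (Fcgr1). On the other side, MN1VP16 array 2 differed from Gr1Mac by between -1.15 (Fcer1g) and 0.73 (Fcgr2b). No side of the split held both MN1 and Gr1Mac. With the split as a term, limma called only Fcer1g of the 5 lower in MN1, where 572 of 18193 genes were called lower. In that fit Fcgr4 was at -2.97 (limma adjusted p = 0.0821), Fcgr3 at -1.82 (0.218) and Fcgr1 at -4.10 (0.0574). The call of Fcgr3 was also lost without either Gr1Mac array (adjusted p = 0.0761 without array 1 and 0.0652 without array 2). Leaving out 1 array at a time, all 5 differences stayed negative, while the calls of Fcgr1 and Fcgr3 were not kept throughout. The differences ran from -2.89 to -2.19 for Fcer1g and from -3.34 to -1.95 for Fcgr4.

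The call of Fcer1g between MN1VP16 and MN1 was narrow as well. It was lost without MN1 array 2 (1.30 log2 units, adjusted p = 0.241), without MN1VP16 array 1 (1.39, 0.118) or array 2 (1.90, 0.0790), and without either Gr1Mac array (1.64, 0.0727). Without MN1 array 1, by contrast, the differences between MN1VP16 and MN1 were larger, at 1.99 for Fcer1g, 2.26 for Fcgr3 and 2.57 for Fcgr4.

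Because Fcgr2b opposes the other receptors, its balance with them within each array was also followed. Fcgr3 minus Fcgr2b was -0.02 and -0.50 log2 units in MN1, 0.24 and -0.14 in MN1VP16, against 0.80 and 1.11 in Gr1Mac. Both groups of transduced cells thus lay below Gr1Mac in this balance, and overlapped each other. Fcgr4 minus Fcgr2b was -1.61 and -2.13 in MN1, -0.78 and -1.76 in MN1VP16, against -0.30 and 0.07 in Gr1Mac, in the same arrangement. Fcer1g minus Fcgr2b was 0.24 and 0.41 in MN1, 1.27 and 0.10 in MN1VP16, against 1.84 and 2.12 in Gr1Mac. Fcgr1 minus Fcgr2b was arranged differently: it was -5.59 and -4.77 in MN1, below Gr1Mac at -3.11 and -4.23, but MN1VP16 at -3.14 and -5.49 overlapped both. The MN1 values of Fcgr1 were under the background guide. Such differences set the changes of 2 genes side by side and do not give relative amounts of the receptors. Unequal change beyond the spread of the arrays was not shown. With 2 arrays a group the smallest p an exact two-sided permutation test can give is 0.333, so none of the 12 comparisons of this kind could pass; the value 0.333 became 0.571 after Benjamini-Hochberg adjustment.

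Fcgr1 and Fcgr2b had more than 1 probe set each. The second Fcgr1 probe set read 5.99 and 5.73 in MN1, 6.84 and 6.12 in MN1VP16, against 7.07 and 6.47 in Gr1Mac, the same order with smaller steps. Of the 5 probe sets of Fcgr2b, 4 had MN1 lowest and MN1VP16 highest by group mean. Their differences between MN1 and Gr1Mac ran from -1.22 (limma adjusted p = 0.0514) to -0.88, and between MN1VP16 and MN1 from 1.24 to 1.67. The fifth lay between 3.23 and 3.76 on all arrays, under the background guide. The probe set that stands for Fcgr2b has a name in _s_at, which Affymetrix gives to sets whose probes can match more than 1 transcript, and the extracellular parts of Fcgr2b and Fcgr3 are known to be nearly identical, so the signals of these 2 genes may not be fully separate.

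**Figure D3:**
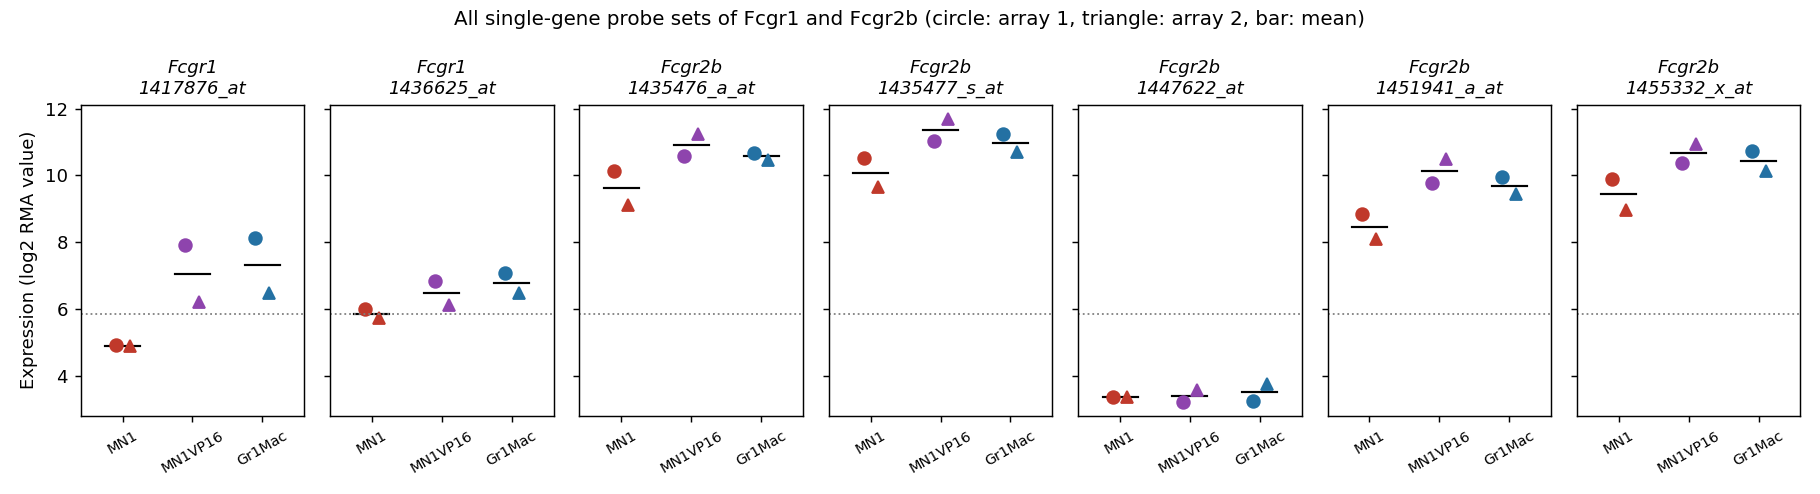
Log2 expression value on each array for the 2 probe sets of Fcgr1 and the 5 of Fcgr2b; circles are array 1, triangles array 2, bars the group means, and the dotted line the background guide at 5.84. The steps of the second Fcgr1 probe set are smaller than those of the first, and the dimmest Fcgr2b probe set stays under the line.

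The genes whose 6 values, each centred on its own mean, came closest to a member were found among all other genes. For Fcer1g the closest was Spi1, which encodes PU.1, at a root mean square difference of 0.10 log2 units, followed by Mrtfa (0.12) and Milr1 (0.13). Spi1 read 9.82 and 8.99 in MN1, 11.20 and 10.76 in MN1VP16, against 11.90 and 11.56 in Gr1Mac. For Fcgr3 the closest were Tnfrsf1a (0.06), a receptor for tumour necrosis factor, Itpripl2 (0.10) and Sort1 (0.10). Fcgr4 was closest to Nlrx1 (0.11), Aldh3b1 (0.12) and the long noncoding RNA Morrbid (0.14). Fcgr1 followed Cyp27a1 (0.19), Fcgrt (0.19) and P2ry6 (0.20), all 3 of them high on array 1 and low on array 2 of both MN1VP16 and Gr1Mac. Fcgr2b followed Mapkapk3 (0.14), the granulocyte factor Cebpa (0.16) and Il1rl2 (0.16). Between members, Fcgr4 and Fcer1g were 0.23 apart, Fcgr3 and Fcgr4 0.28, and Fcgr1 and Fcgr2b 1.00. These are descriptions over 6 arrays of 3 groups, in which any gene with the same group means comes close.

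**Figure D4:**
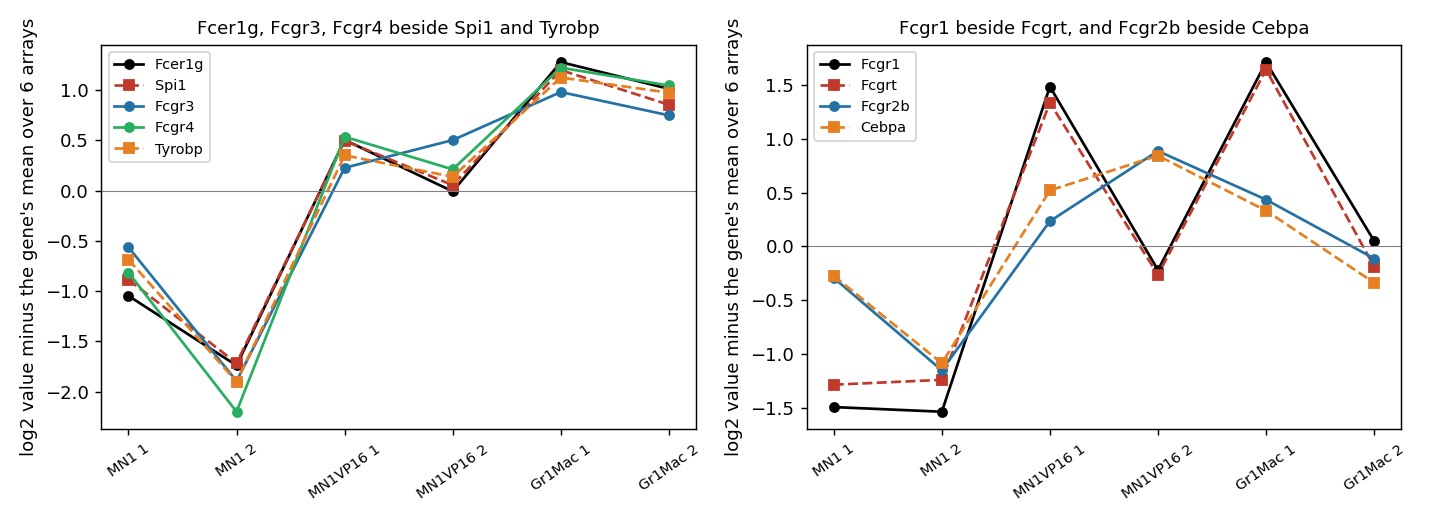
Log2 value minus the gene's mean over the 6 arrays (vertical axis) by array; lines only join the values of a gene, and arrays within a group have no order. Spi1 runs within 0.10 log2 units (root mean square) of Fcer1g, and Fcgrt within 0.19 of Fcgr1.

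Other genes of the pathway were followed in 5 lists. Over all genes, 12.0% were called lower and 17.3% higher in MN1 against Gr1Mac (17.7% and 22.1% at an unadjusted p under 0.05 by limma). For MN1VP16 against Gr1Mac these shares were 2.11% and 3.66% (10.3% and 13.4% unadjusted). For MN1VP16 against MN1 they were 2.70% and 1.15% (13.3% and 9.15% unadjusted). Among adaptors with an ITAM and the receptors that use them, 8 of 15 measured genes fell in MN1 against Gr1Mac and 0 rose (1 at an unadjusted p under 0.05), with a median of -2.17 log2 units. Tyrobp, the adaptor DAP12 that plays the part of Fcer1g for other receptors, was 5.08-fold lower in MN1 (limma adjusted p = 0.00717), at 12.74 and 11.52 against 14.55 and 14.40. The lowest were Sirpb1a, at -2.89 log2 units, and Treml4, at -2.70. In MN1VP16 against Gr1Mac 2 of the 15 were lower, Treml4 at -2.37 and Clec4d, a C-type lectin that signals with Fcer1g, at -2.32. Between MN1VP16 and MN1 limma called 0 of 15 (5 at an unadjusted p under 0.05, all higher).

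Activating kinases and adaptors, which carry the signal on from the ITAM, fell in 18 of 29 and rose in 4 between MN1 and Gr1Mac (median -1.05). Syk, the kinase that binds the phosphorylated ITAM, was 3.12-fold lower in MN1 (limma adjusted p = 0.00465), at 10.53 and 9.92 against 11.89 and 11.84. The Src family kinase Fgr was 7.72-fold and the adaptor Lcp2 5.04-fold lower. Of the genes that rose, Lat, an adaptor best known from T cells, mast cells and platelets, was 5.97-fold and the phospholipase Plcg1 4.08-fold higher. Its relative Plcg2, which serves myeloid cells and B cells, fell by 1.84 log2 units. Against Gr1Mac limma called 0 of 29 in MN1VP16 (9 at an unadjusted p under 0.05, 8 of them lower), and against MN1 it called 1, Sos1, lower, at -1.26 (adjusted p = 0.0491). At an unadjusted p under 0.05, 16 of the 29 were higher in MN1VP16 than in MN1 and 5 lower, and the median difference was 0.64.

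Of 18 measured inhibitory phosphatases, adaptors and receptors, 10 fell in MN1 against Gr1Mac and 0 rose (1 at an unadjusted p under 0.05, median -1.72). Inpp5d, the phosphatase SHIP1 through which Fcgr2b acts, read 11.28 and 11.16 in MN1, 11.43 and 11.25 in MN1VP16, against 11.44 and 11.43 in Gr1Mac, a difference of -0.22 ± 0.16 between MN1 and Gr1Mac (limma adjusted p = 0.366). Ptpn6, the phosphatase SHP-1 used by many other inhibitory receptors, was 3.88-fold lower in MN1 (limma adjusted p = 0.00352). The inhibitory receptors Pirb, which also recruits SHP-1, and Sirpa, which binds CD47, were 9.92-fold and 7.69-fold lower. MN1VP16 had 0 of 18 called against Gr1Mac (7 at an unadjusted p under 0.05) and 0 against MN1 (9, all higher).

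Of the 12 measured transcription factors known from Fc receptor genes, 3 fell in MN1 against Gr1Mac and 0 rose (1 at an unadjusted p under 0.05), namely Spi1, Cebpb and Stat3 (median -1.26). Spi1 was 5.02-fold lower (limma adjusted p = 0.00430), and its 1.58 ± 0.32 log2 units between MN1VP16 and MN1 did not pass (0.0561). Cebpb, a factor of emergency granulopoiesis and macrophages, was 11.9-fold lower in MN1 than in Gr1Mac. Between MN1VP16 and MN1, 3 of 12 were higher: Irf8, a monocyte factor, 11.2-fold (limma adjusted p = 0.0465), Cebpb 5.66-fold (0.0318), and Stat3. Irf8 read 7.98 and 7.96 in MN1, 11.84 and 11.08 in MN1VP16, against 11.04 and 9.02 in Gr1Mac, where array 1 lay above array 2 as for Fcgr1. Against Gr1Mac limma called 0 of 12 in MN1VP16 (4 at an unadjusted p under 0.05).

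Of 10 measured receptors for other antibody classes and for IgG transport, 2 were lower and 1 higher in MN1 than in Gr1Mac (median -0.16). Over all genes 12.0% were called lower and 17.3% higher, so these counts are near the background. The gene that was higher, Ms4a2, encodes the beta chain of the IgE receptor, which on mast cells also contains Fcer1g, so 2 chains of this complex moved in opposite directions. Ms4a2 read 13.31 and 13.90 in MN1, 12.03 and 9.60 in MN1VP16, against 6.72 and 6.30 in Gr1Mac. Fcrl1, an Fc receptor-like gene of B cells, was at least 3.01-fold lower in both MN1 and MN1VP16 than in Gr1Mac, and Fcmr, the IgM receptor, was called lower in MN1, though Gr1Mac array 2 was itself under the background guide. Fcgrt, which encodes the receptor that carries IgG across cells and protects it from breakdown, read 5.80 and 5.85 in MN1, 8.42 and 6.82 in MN1VP16, against 8.73 and 6.90 in Gr1Mac. Its difference of -1.99 ± 0.71 between MN1 and Gr1Mac did not pass (limma adjusted p = 0.0896). Between MN1VP16 and MN1 limma called 0 of 10 (4 at an unadjusted p under 0.05).

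**Figure D5:**
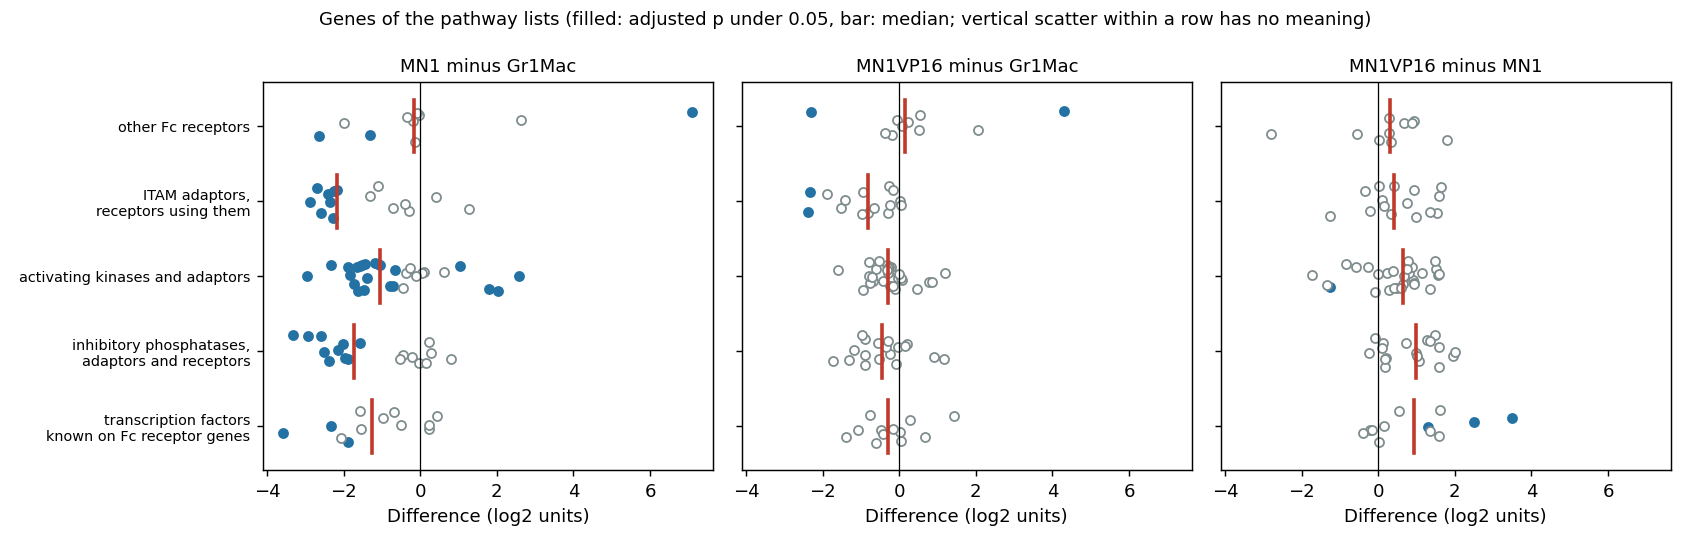
Difference in log2 units (horizontal axis) of each measured gene in the 5 pathway lists, for the 3 comparisons; filled points passed an adjusted p under 0.05 by limma, bars are list medians, and the vertical scatter within a row has no meaning. The medians for MN1 minus Gr1Mac run from -2.17 for ITAM adaptors and their receptors to -0.16 for other Fc receptors.

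Markers of cells that carry these receptors moved with the groups too. Over all genes 12.0% were called lower and 17.3% higher in MN1 than in Gr1Mac, and 1.15% higher in MN1VP16 than in MN1. Neutrophil markers fell in 8 of 11 in MN1 against Gr1Mac, with Itgam at -3.62 log2 units and Cd177 at -2.89. Itgam encodes CD11b, on which Gr1Mac was sorted, so its difference is not separate from the sort. The mean over the list was 12.57 and 11.69 in MN1, 13.04 and 12.84 in MN1VP16, against 13.86 and 13.95 in Gr1Mac. Monocyte and macrophage markers fell in 8 of 11, and 5 of 11 were higher in MN1VP16 than in MN1, with Klf4 at least 27.9-fold and Ms4a6c 3.34 log2 units higher. Their mean was 8.14 and 7.81 in MN1, 11.05 and 10.11 in MN1VP16, against 10.81 and 10.18 in Gr1Mac, so it was higher on array 1 than on array 2 of the groups in which Fcgr1 was. Mast cell and basophil markers, cells in which Fcer1g and Fcgr3 are also active, went the other way, with 6 of 10 higher in MN1. Their mean was 9.46 and 10.05 in MN1, 8.96 and 8.15 in MN1VP16, against 6.31 and 6.08 in Gr1Mac. Of these 10 genes, 4 are counted in other lists here as well, among them Ms4a2, Kit and Gata2. B cell markers, of cells that carry Fcgr2b, had means from 6.29 to 6.58 in MN1VP16, 5.38 to 5.42 in MN1 and 5.23 to 5.57 in Gr1Mac; Cd79a was at least 1.67-fold higher in MN1VP16 than in MN1, and 2 of 9 lay under the background guide on every array.

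For NK cells the means ran from 5.24 to 5.61 over all arrays, with 4 of 8 markers under the guide throughout, and Klrk1 alone was called (higher in MN1VP16 than in MN1). Dendritic cell markers had means from 5.52 to 5.87, with 4 of 8 under the guide, 3 lower and 1, Flt3, higher in MN1 than in Gr1Mac. Stem and progenitor markers (9 of 10 higher in MN1 than in Gr1Mac) and erythroid markers (6 of 8) rose. Of megakaryocyte and platelet markers 2 of 8 were higher and 1 lower, near the shares over all genes (17.3% and 12.0%). The part of these cell types in the Fc receptor differences was not tested.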

How the data were processed

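Per the submitters' processing notes, RMA (background correction, quantile normalisation, probe summary; version unknown) made the authors' deposited values, which are log2 expression levels of probe sets. RMA compresses differences of dim genes and hides changes in total RNA per cell. Of 45101 lines, 64 were control features, and the platform annotation in GEO gave a single gene to 34945 of the other 45037. Symbols were checked by gene number against RefSeq (GRCm38.p6), which matched 34741 and changed 0. Each of 18193 genes was represented by its brightest probe set (mean of the 6 arrays).

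Linear models (limma 3.58.1, R 4.3.3, lmFit and eBayes) had the group as the only term over all 6 arrays, with 3 residual degrees of freedom and 3.03 from the prior. The p-values were adjusted over all genes within a comparison (Benjamini-Hochberg) and called under 0.05; SEs and 95% intervals are limma's. The script was tested on simulated data. For a called gene with a group mean at or under 5.84 log2 units, the fold is given against that level, array by array, as "at least". Arrays of a group number 2, which limits the precision.

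The members and the 14 gene lists were chosen with earlier results of these data known. Named genes are the members; per list and comparison, at most the 2 called genes a direction with the largest difference; Spi1, Irf8, Tyrobp, Syk, Lyn (which no single-gene probe set measured), Inpp5d, Ptpn6, Fcgrt, Itgam, Ly6g, Xist, Kdm5d and Mn1; and per member the 3 genes with the closest centred profile. Fcer1a, Plcg2 and Stat3 were named after their values were seen. Promoter sequences are RefSeq's. Alternatives were a block for replicate number, sex pattern or control features, fits of 2 groups, mean of probe sets, probe set suffix, a filter on the dimmest 40% of genes, array centring, eBayes with trend, leaving out each array, and, chosen after seeing the data, each other probe set of Fcgr1 and Fcgr2b.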

Additional observations from a re-analysis of the deposited data

How the results depend on the processing

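Leaving out 1 array at a time (its lone partner was then assumed to vary like the other groups), the log2 differences between MN1 and Gr1Mac ranged from -3.23 to -1.57 for Fcgr1, -1.31 to -0.45 for Fcgr2b, -2.76 to -1.43 for Fcgr3, -3.34 to -1.95 for Fcgr4 and -2.89 to -2.19 for Fcer1g, and the genes called numbered 2418 to 5129. Between MN1VP16 and Gr1Mac they ranged from -1.10 to 0.60, 0.07 to 0.73, -0.64 to -0.36, -0.92 to -0.60 and -1.15 to -0.64 in that order, with 49 to 1243 genes called, and between MN1VP16 and MN1 from 1.30 to 3.0, 0.85 to 1.71, 0.93 to 2.26, 1.19 to 2.57 and 1.30 to 1.99, with 26 to 498. Fcgr1 lost its call between MN1 and Gr1Mac with the control feature split as a block (-4.10), the mean of probe sets (-1.65), no _x_at, _s_at or _a_at sets (-2.40, adjusted p = 0.0507), centred arrays (-2.41) and its other probe set (-0.91). The split also ended those of Fcgr3 (-1.82) and Fcgr4 (-2.97), and a block for sex pattern that of Fcgr3 (-2.21). Fcer1g lost its call between MN1VP16 and MN1 with the sex pattern (1.91) or the split (1.90) as a block, only these groups in the fit (1.64) and centred arrays (1.63). Between MN1VP16 and Gr1Mac, where neither was called, Fcgr1 turned to 0.58 with the sex pattern block, and Fcgr2b to -0.11 without _x_at, _s_at or _a_at sets and with its dimmest probe set. All genes called numbered 5334 between MN1 and Gr1Mac (1486 with the split), 1050 between MN1VP16 and Gr1Mac (441 with the split, 347 with only these groups), and 701 between MN1VP16 and MN1 (203 with the split, 454 with only these groups, 0 with the sex pattern block, where limma gave 2501 at an unadjusted p under 0.05). The causes were not tested, and only 2 arrays a group limit the precision.

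Arrays of different groups share replicate numbers. Over all genes the correlations of their deviations were -0.05, -0.05 and 0.08, which does not show whether some genes share an effect of that number. Fcgr1, Fcgr4 and Fcer1g read higher on array 1 than on array 2 in all groups, while Fcgr2b and Fcgr3 did not in MN1VP16. Under a replicate block the SE went from 0.70 to 0.44 for Fcgr1, from 0.30 to 0.19 for Fcer1g and from 0.38 to 0.39 for Fcgr2b. The cause was not tested. With the replicate block, 5040, 829 and 532 genes were called in these comparisons, and no call of a member changed (Fcgr1 between MN1 and Gr1Mac at adjusted p = 0.0155 by limma).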
